A study of Bos taurus with 16 samples.

Results

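The genes described here encode the proteins of the cytosolic ribosome. They were taken by name from the bovine array, as the probes whose gene name, or whose symbol in the probe description, was RPL or RPS with a number or was one of RPSA, RPLP0, RPLP1 and RPLP2, without the RPS6K kinases. The rule found 76 genes among the 20459 distinct names on the array, on 79 of its 21475 probes, and each gene was read from its brightest probe. Of these genes, 28 belong to the small subunit, 39 to the large subunit and 3 to the ribosomal stalk. A further 5 are paralogs, which are RPL3L, RPL7L1, RPL26L1, RPL36AL and RPS27L. The last, RPS19BP1, met the rule by its symbol but encodes a protein that binds RPS19 and is no part of the ribosome.

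The measurements came from 4 pregnant cows killed at an abattoir at days 164, 239, 242 and 248 of pregnancy (animals 1 to 4). From each cow, CD14+ cells were sorted by flow cytometry from the dispersed interplacentomal endometrium and from the mononuclear cells of the blood left in the heart. The labels give no treatment, and breed and age are not given in the sources used here. CD14 is a surface receptor for bacterial lipopolysaccharide carried by monocytes and macrophages, and the study compared the macrophages of the pregnant uterus with the monocytes of the blood. Each array carried amplified RNA of both tissues of 1 animal, 1 in the dye Cy3 and the other in Cy5. Every animal had 2 arrays as technical replicates, which gave 16 channels on 8 arrays, with dyes swapped in 3 of the 4 animals.

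A ribosome consists of a small subunit, which reads the messenger RNA, and a large subunit, which joins the amino acids. Each subunit holds 1 copy of most of its proteins, and cells make these proteins together. In mammals the messages of nearly all ribosomal proteins begin with a terminal oligopyrimidine tract, by which the kinase complex mTORC1 controls their translation. Messages for ribosomal proteins are among the most abundant of any cell, and several of them are used as reference genes in quantitative PCR. RPL19, of the large subunit, was the reference gene of the PCR in this study.

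All probes were 60 bases long, and their place in the transcripts was not determined. The hexamer AATAAA, the usual signal for cleavage and polyadenylation, was present on the probe strand in 26 of the 76 probes (34.2%), against 11.8% of all 21475 probes. The reverse complement TTTATT was found in 2 of the 76 (2.63%), against 3.88% of all probes. These were the probes of RPS27 and RPL26L1, and the strand that they read was not determined. A stretch of 30 bases is printed for the probes on which the results below turn, from 5′ to 3′. The first 4 hold the hexamer, in capitals, and the others show the last 30 bases of the probe.
RPL19: attgcatagatcactcattcAATAAAagac
RPL3: tgtacagctggtagaacctcAATAAAatta
RPS27L: tattttggtgtcagtttttcAATAAAgttt
RPS27A: ttgtatattggttAATAAAgatatgagcta
RPS27: cttttttattcagctatcatttctagggaa
RPL32: ggagtcagttcacagagtgaattccacact
RPL3L: catctggagaaggaaaagccggagacctcg
RPS27 and RPS27L, which encode closely related small subunit proteins, share no run longer than 5 bases between their probes. The longest run shared by a paralog and its namesake was 7 bases, between RPL36A and RPL36AL. With the hexamer the median log2 ratio of the genes was -0.01 (26 genes), and without it -0.08 (50 genes). Over all probes tested the same medians were 0.02 (2231 probes) and -0.16 (14422 probes).

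Values are the log2 levels normalized by the authors, and the log2 ratio is the level in endometrial cells minus the level in blood cells of the same animal. Levels on an array depend on the probe, so each gene is compared only with itself. A probe counted as well above background by the scanner's own mark, and was tested where either tissue had this mark in 4 or more of its 8 channels. This kept 16653 of the 21475 probes, among them all 76 probes of the set. In 75 of the 76 genes the probe was well above background in all 16 channels. The exception was RPL3L, a paralog of RPL3 known from striated muscle, which rose clearly above background in 1 of the 8 channels of endometrium and in 4 of the 8 of blood. No probe on the array was saturated.

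No ribosomal protein gene was differentially expressed between endometrial and blood CD14+ cells. At an adjusted p of at most 0.05 in limma's moderated test over 4 animals and a fold change over 2, 0 of 76 genes were upregulated and 0 were downregulated in the endometrium. Over all 16653 probes tested, 204 (1.23%) were upregulated and 20 (0.12%) downregulated, 1.35% in all. These calls all lay at a mean log2 level under 14. At 14 or more, where 58 of the 76 genes lay, 0 of 1309 probes were called in either direction. The 0 of 76 therefore does not set these genes apart from other bright probes. Before adjustment, 1 gene of the 76 had a p of 0.05 or less and was lower in endometrium (RPS27), and none was higher, against 8.05% and 7.98% of all probes. The lowest adjusted p of the set was 0.281 in limma. The unmoderated test on the same ratios called 0 probes of the whole array, so its 0 of 76 adds nothing. Without animal 4, no probe on the array was called in either direction. In such bulk samples, fewer cells of a type and less RNA per cell cannot be told apart.

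The ratios of the set lay close to 0. Their median was -0.03 on the log2 scale and their median size, regardless of sign, was 0.144, while over all probes tested these were -0.14 and 0.636. Within 0.25 of 0 lay 58 of the 76 genes, against 22.8% of all probes, and within 0.5 lay 70 of the 76, against 41.7%. The mean ratio passed a fold change of 2 in 3 genes, all lower in endometrium and RPL3L and RPS27 among them, against 17.8% of all probes lower and 14.8% higher. RPL3L had passed the filter only through blood (4 of 8 channels, against 1 of 8 in endometrium), so its direction carries little weight. The sign of the median depended on the scaling, since it was 0.10 after each animal was centred on the median of all its probes, with 47 genes higher and 29 lower in place of 28 and 48. The levels of the 2 tissues did not overlap over the 4 animals in 0 of 76 genes in either direction, against 2.7% of all probes for higher levels in endometrium and 3.37% for higher levels in blood.

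**Figure D1:**
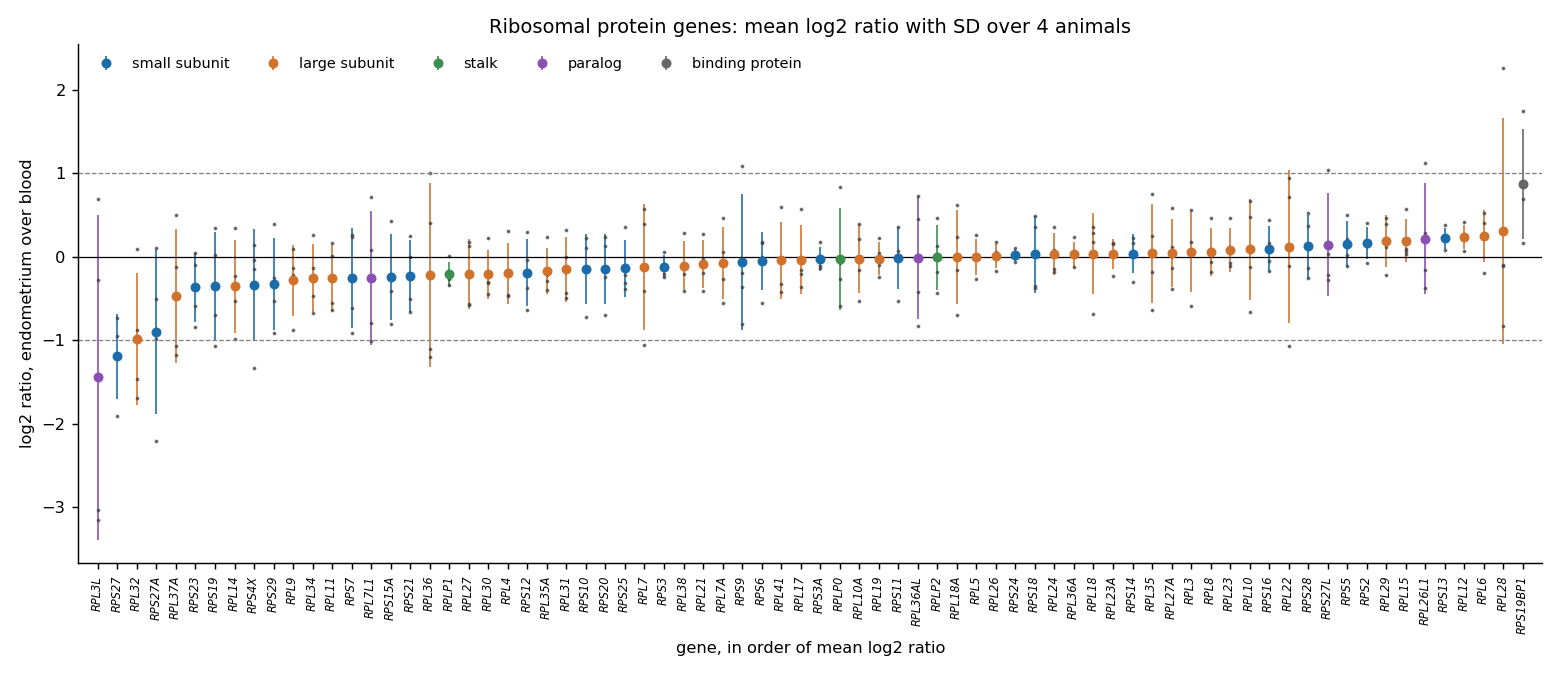
Mean log2 ratio of endometrium over blood (vertical axis) for 74 of the 76 genes, in order from lowest to highest. Large points are means, coloured by the part of the ribosome, bars are the SD over 4 animals, small points are the animals, and dashed lines mark a fold change of 2. Most means lie near 0, with RPL3L and RPS27 below a log2 ratio of -1.

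Bright probes varied less than dim ones on this array, and the set was bright, so the ratios were also compared within ranges of level. At a mean log2 level of 16 or more there were 35 genes of the set and 123 probes in all. The median size of the log2 ratio was 0.081 in these genes and 0.234 over the 123 probes, and 34 of the 35 lay within 0.25 of 0, against 54.5% of the probes. At a level from 14 to 16 the median size was 0.191 in 23 genes and 0.438 over 1186 probes. From 12 to 14 it was 0.144 in 9 genes and 0.528 over 2691 probes. Below this few genes were left, with 0.352 in 3 genes and 0.649 over 3340 probes from 10 to 12, and 0.561 in 4 genes and 0.761 over 3247 probes from 8 to 10. Under a level of 8 the order turned, with 0.874 in 2 genes (RPL3L and RPL28) and 0.691 over 6066 probes. The members are counted in these totals, and no test was made of the difference. The genes below a level of 14 held all the large ratios of the set, since 58 of the 58 genes at 14 or more lay within 0.5 of 0, against 12 of the 18 below.

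**Figure D2:**
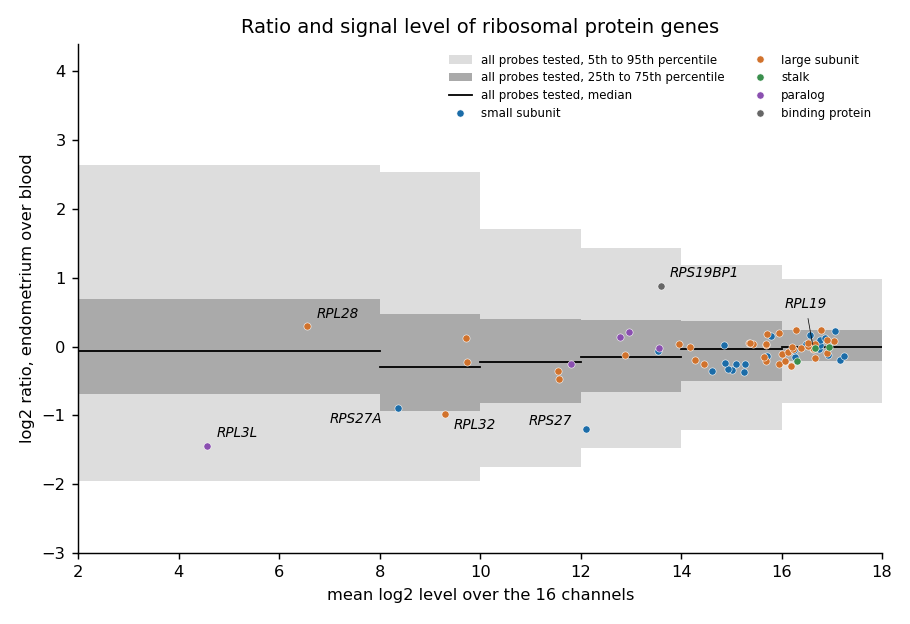
Mean log2 ratio of endometrium over blood (vertical axis) against the mean log2 level over 16 channels (horizontal axis) for 74 of the 76 genes, coloured by part of the ribosome. Grey bands give the range of all probes tested in 6 ranges of level. Genes above a level of 16 sit within a narrow band around 0, and RPL3L, RPS27A, RPL32 and RPS27 lie at lower levels and below the middle grey band or at its edge.

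The precision of a single gene was limited by the 4 animals. The moderated test drew the variance of each gene towards that of all probes, and so the narrowest 95% interval in the set reached 1.02 to either side of its log2 ratio. Even before adjustment, a difference of under 2-fold in a single gene was therefore not detectable. A call needed an adjusted p of at most 0.05, and so a larger difference than this interval gives. In CSF1R, a macrophage marker, a p of 0.00102 in limma became 0.0643 after adjustment. The SD over the 4 animals of a gene's own ratio was smaller, with a median of 0.412, against 1.12 over all probes tested. Part of this gap went with level. At a mean level of 14 or more these medians were 0.367 and 0.615, and at 16 or more 0.285 and 0.480. Over the 76 genes the SD ran from 0.069 in RPS24 to 1.94 in RPL3L. An exact permutation test with 4 pairs cannot pass a threshold of 0.05, since the smallest 2-sided p it can give is 1 in 8.

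RPL19 was among the steadiest genes of the set. Its level in endometrial cells was 16.37, 16.72, 16.50 and 16.89 in animals 1 to 4, and in blood cells 16.48, 16.67, 16.74 and 16.67. The groups overlapped, and the endometrial level was the lower one in animals 1 and 3 and the higher one in animals 2 and 4. The log2 ratio was -0.02 ± 0.20 (SD, n = 4), with a 95% interval from -1.05 to 1.01. By the SD of its 8 levels, 0.169, RPL19 was the 4th steadiest of the 76 genes, and 0.132% of all probes tested had a smaller SD. Among the 123 probes at a mean level of 16 or more, 5.69% did. Among the genes with a smaller SD were RPS3A of the small subunit (0.151) and RPL26 of the large subunit (0.157). The 8 levels of RPL19 spanned 0.518 on the log2 scale. RPS24, a small subunit protein, had the steadiest ratio, with levels of 16.46, 16.85, 16.81 and 16.94 in endometrium and 16.52, 16.75, 16.77 and 16.95 in blood. In RPS24 the animals differed more from each other than the tissues of an animal did. RPS24 and RPS3A were named after their values were seen.

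The stalk is the flexible arm of the large subunit that recruits translation factors, and its base is RPLP0. RPLP0 was at 16.57, 17.04, 16.34 and 16.63 in endometrium and at 16.65, 16.21, 16.94 and 16.90 in blood. Its ratio was positive in animal 2 (0.83) and negative in animal 3 (-0.60), and the mean was -0.03 ± 0.61 (SD, n = 4). RPLP1 was at 15.76, 16.46, 16.17 and 16.44 in endometrium and at 16.01, 16.45, 16.51 and 16.70 in blood. Its mean ratio was -0.21 ± 0.15 (SD, n = 4, adjusted p = 0.856 in limma), and the level was higher in blood in 3 of 4 animals. RPLP2, the partner of RPLP1, had a ratio of -0.01 ± 0.39 (SD, n = 4). The median ratio of the 3 stalk genes was -0.03, as in the whole set.

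RPS6, the small subunit protein that S6 kinases phosphorylate, had levels of 15.97, 16.44, 15.95 and 16.51 in endometrium and 15.97, 16.28, 16.50 and 16.33 in blood. The ratio was near 0 in animal 1, positive in animals 2 and 4 and negative in animal 3, and averaged -0.05 ± 0.35 (SD, n = 4). RPSA, the laminin receptor that is also a small subunit protein, was listed under its older symbol LAMR1 and so fell outside the rule. Its described probe had ratios of -0.93, 0.31, 0.10 and 0.50 in animals 1 to 4, with a mean near 0 (adjusted p = 0.998 in limma). A further probe with its accession, described as another gene, was well above background in no channel.

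The 28 small subunit genes had a median ratio of -0.13, and the 39 large subunit genes one of -0.02. The small subunit genes were higher in endometrium in 8 and lower in 20, the large subunit genes higher in 17 and lower in 22. In both subunits 0 genes were called. Within each animal the median of the small subunit was the lower one, by 0.081, 0.149, 0.167 and 0.032 on the log2 scale in animals 1 to 4, and this gap was not tested.

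RPS27 had the lowest p of the set, on a probe that holds TTTATT and not AATAAA. The protein sits on the small subunit and holds a zinc finger. Its level in endometrial cells was 10.87, 11.87, 10.68 and 12.62 in animals 1 to 4, and in blood cells 11.60, 12.83, 12.58 and 13.81. The groups overlapped because the animals differed, but within each animal the endometrial level was the lower one. The log2 ratios were -0.73, -0.95, -1.90 and -1.19, with a mean of -1.19 ± 0.51 (SD, n = 4), a 2.29-fold lower level. The standard error in limma was 0.46 and the 95% interval ran from -2.29 to -0.10, but after adjustment over all probes p was 0.281. The ratio was negative on all 8 arrays, as in 12.2% of all probes tested. Lower in 4 of 4 animals were 2 of 76 genes, RPS27 among them, against 15.2% of all probes.

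RPS27L, the paralog of RPS27 that is known as a target of p53, did not share that pattern. It was at 12.83, 12.46, 13.41 and 12.74 in endometrium and at 13.05, 12.74, 12.36 and 12.71 in blood. Its ratio was negative in animals 1 and 2 and reached 1.04 in animal 3, where that of RPS27 was at its lowest. The mean was 0.14 ± 0.61 (SD, n = 4), and the difference from RPS27 was not tested. RPS27A, a fusion of ubiquitin with a small subunit protein, was at 7.20, 8.17, 8.23 and 8.04 in endometrium and at 9.41, 8.07, 9.22 and 8.55 in blood. Its ratio was negative in animals 1, 3 and 4 and averaged -0.90 ± 0.98 (SD, n = 4, adjusted p = 0.448 in limma).

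**Figure D3:**
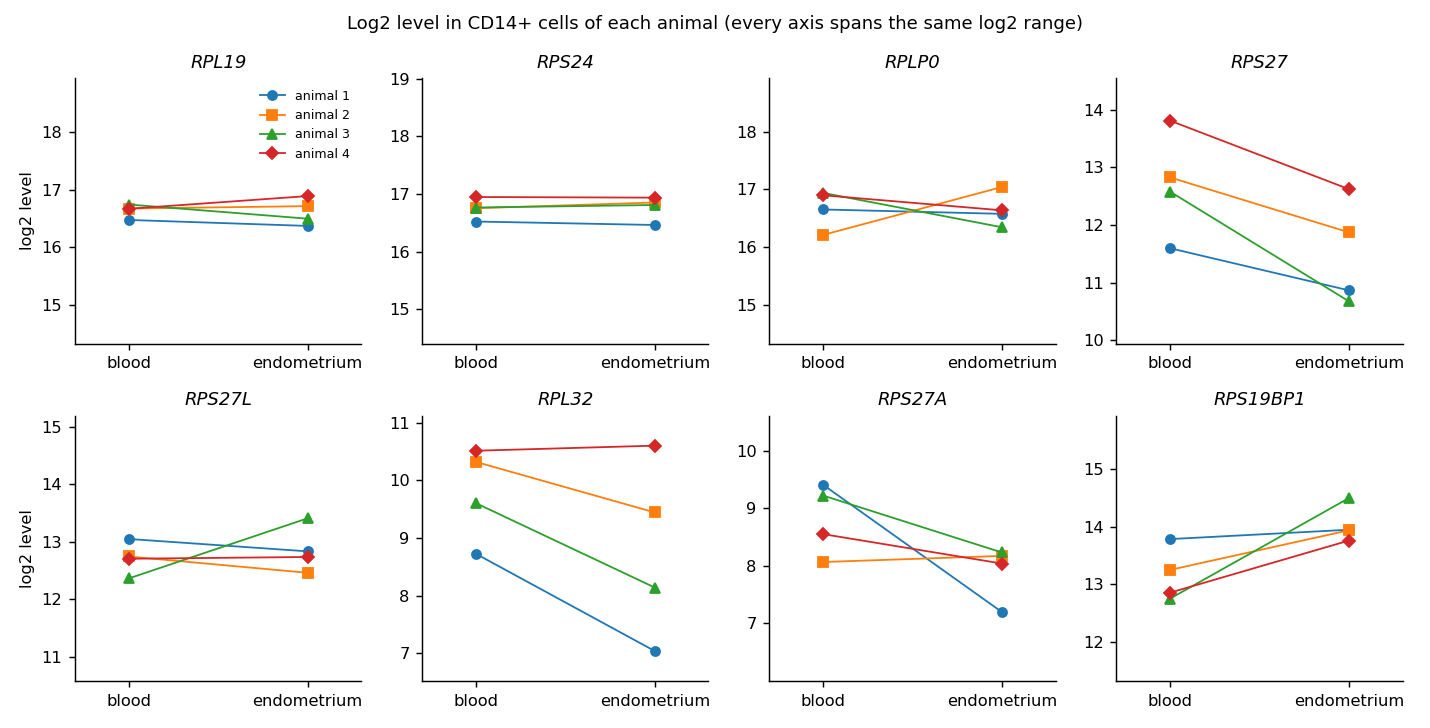
Log2 level in blood and endometrial CD14+ cells (vertical axes, all of equal span) for 8 genes, with 1 line per animal, as means of 2 technical replicates. RPL19 and RPS24 are nearly flat, and all 4 lines of RPS27 fall towards endometrium.

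Other low ratios were less even over the animals. RPL32, of the large subunit, was at 7.04, 9.44, 8.14 and 10.60 in endometrium and 8.72, 10.32, 9.60 and 10.51 in blood. It was lower in endometrium in animals 1, 2 and 3 and 0.09 higher in animal 4, with a mean of -0.99 ± 0.79 (SD, n = 4, adjusted p = 0.382 in limma). RPL37A, also of the large subunit, averaged -0.47 ± 0.80 (SD, n = 4).

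RPL3L was near the floor of the array in most samples. Its level was 2.85, 3.12, 3.93 and 5.48 in endometrium and 6.0, 3.41, 3.23 and 8.52 in blood, with the higher values in blood of animals 1 and 4. The ratios were -3.15, -0.28, 0.69 and -3.03 and their mean -1.44 ± 1.94 (SD, n = 4, adjusted p = 0.400 in limma). RPL3, its namesake in the ribosomes of all cells, had a ratio of 0.06 ± 0.48 (SD, n = 4). RPL7L1 had a ratio of -0.25 ± 0.80, against -0.13 ± 0.75 for RPL7 (SD, n = 4). RPL26L1 had one of 0.22 ± 0.66, against 0.01 ± 0.15 for RPL26, and RPL36AL one of -0.01 ± 0.73, against 0.03 ± 0.15 for RPL36A (SD, n = 4). In each of these paralogs at least 1 animal was higher in endometrium and at least 1 lower. RPL22 (0.12 ± 0.92), RPL10 (0.09 ± 0.60) and RPS4X (-0.34 ± 0.67) also varied between animals more than their means lay from 0 (SD, n = 4). The paralog RPL22L1, named only by the reference table, was lower in endometrium in 4 of 4 animals, at -0.88, -0.78, -1.60 and -0.13 (adjusted p = 0.420 in limma). The probe of RPL10L was well above background in 1 of 8 channels of each tissue and was not tested.

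At the other end, RPS19BP1 had the highest ratio. It was at 13.95, 13.94, 14.50 and 13.76 in endometrium and at 13.79, 13.25, 12.75 and 12.86 in blood. The ratio was positive in 4 of 4 animals and on all 8 arrays, as in 9.82% and 7.74% of all probes tested, and averaged 0.88 ± 0.66 (SD, n = 4, adjusted p = 0.413 in limma). Since RPS19BP1 is no ribosomal subunit, the highest ratio of a ribosomal protein was that of RPL28, at 0.31 ± 1.35 (SD, n = 4), which came from animal 3 alone. Its ratio there was 2.27, in the other animals it was -0.83, -0.11 and -0.10, and without animal 3 the mean was -0.35. RPL6 (0.25 ± 0.31), RPL12 (0.23 ± 0.14), RPS13 (0.22 ± 0.13) and RPL26L1 completed the 6 highest (SD, n = 4). Higher in 4 of 4 animals were RPL12, RPL15, RPS13 and RPS19BP1.

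The 2 technical replicates of an animal differed in the same direction for most of the set. In the 3 animals with swapped dyes, the endometrial RNA was in Cy3 on replicate 1 and in Cy5 on replicate 2, as the labels number them. The paper gives the opposite order. The ratio was higher with endometrium in Cy5 in each of these 3 animals in 50 of 76 genes (65.8%) and lower in each in 12 (15.8%), against 30.1% and 32.4% of all probes tested. The median change of a gene's ratio from replicate 1 to 2 was 0.225, 0.234 and 0.141 in animals 1, 2 and 4. In animal 3, whose endometrial RNA was in Cy5 on both arrays, it was -0.05. Over all probes these medians lay between -0.011 and 0.004. In animals 1, 2 and 4 dye and slide changed together, and in animal 3 the slide changed without the dye. That is 1 animal, and the parts of dye and slide were not tested.

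This difference was as large as many of the ratios of the set. RPL12, a protein of the large subunit near the stalk, had ratios of -0.46, -0.18 and -0.38 on replicate 1 of animals 1, 2 and 4 and 0.60, 1.01 and 0.78 on replicate 2. RPS13, of the small subunit, had -0.34, -0.35 and -0.20 on replicate 1 and 0.49, 0.78 and 0.64 on replicate 2. Their 4 positive animal means thus came from arrays of opposite sign in 3 animals. RPS27 moved by much less, from -0.66, -0.88 and -1.16 to -0.81, -1.03 and -1.21 in these animals. With replicate 1 only, the median ratio of the set was -0.15, with 15 genes higher and 61 lower, and with replicate 2 only it was 0.03, with 40 higher and 36 lower.

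**Figure D4:**
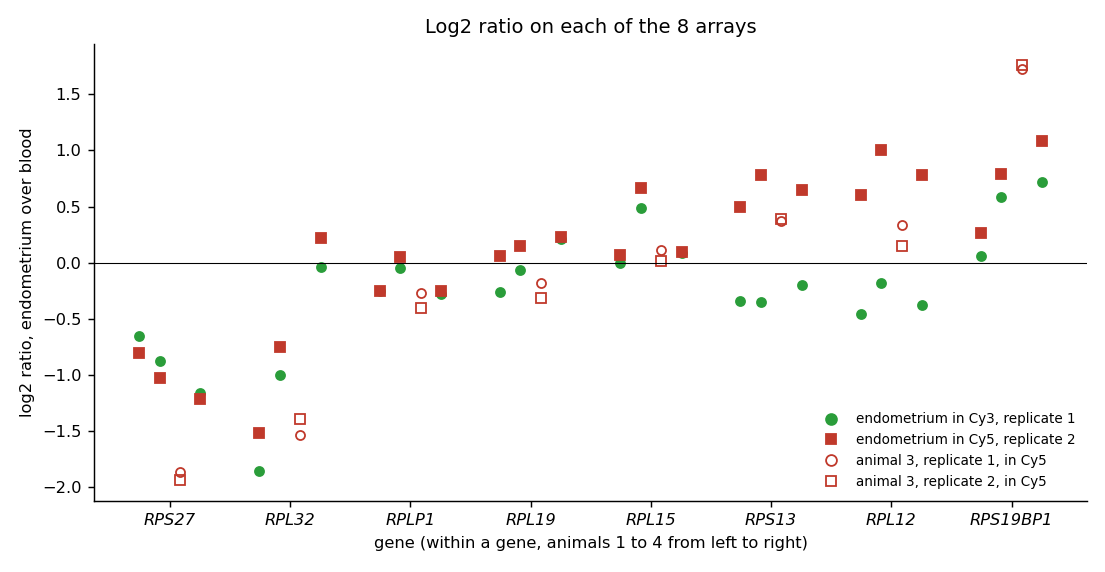
Log2 ratio of endometrium over blood (vertical axis) on each of the 8 arrays for 8 genes, with animals 1 to 4 from left to right within a gene. Colour gives the dye of the endometrial RNA, shape the technical replicate, and open points animal 3, whose dyes were not swapped. RPL12 and RPS13 change sign between the dyes, whereas RPS27 lies below 0 and RPS19BP1 above 0 on all 8.

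The set as a whole also moved with the animal. In animals 1 to 4, the number of the 76 genes that were higher in endometrium was 16, 64, 20 and 37. The median ratio of the set was -0.22, 0.24, -0.24 and -0.01, and that of all probes tested was -0.24, -0.10, -0.13 and -0.05. The large subunit had medians of -0.23, 0.35, -0.19 and 0.004. The small subunit had medians of -0.31, 0.20, -0.35 and -0.03. Animal 2 was thus the animal in which both subunits were higher in endometrium. The SD of the ratios among the 76 genes was 0.575, 0.379, 0.749 and 0.502 in animals 1 to 4, and among all probes 1.63, 1.61, 2.37 and 1.39. Spread was highest in animal 3 in both.

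**Figure D5:**
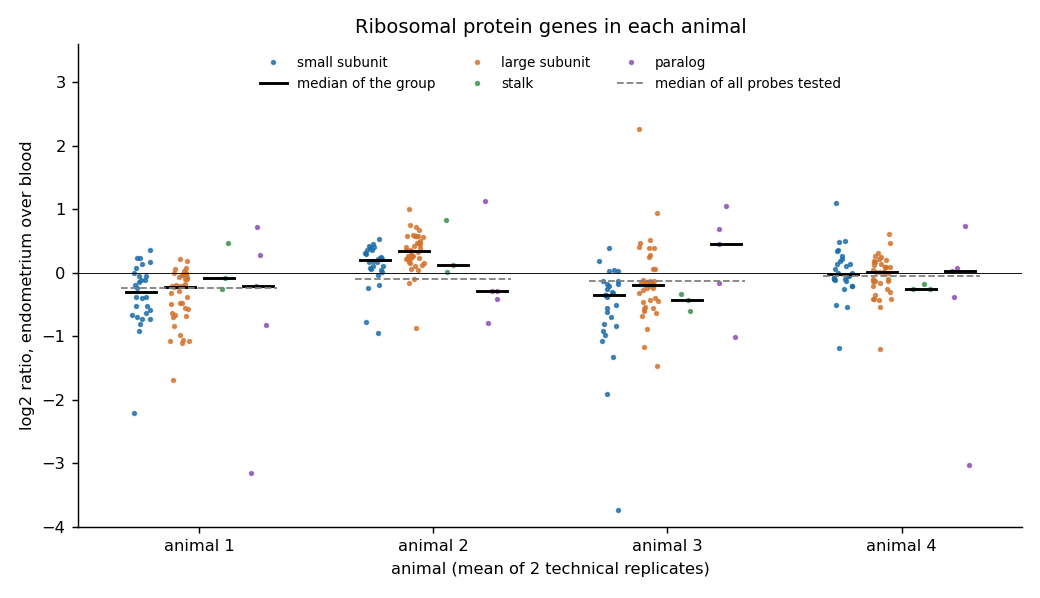
Log2 ratio of endometrium over blood (vertical axis) in each animal, as the mean of 2 technical replicates, for the genes of the small subunit, large subunit, stalk and paralogs. Points are genes, black lines medians of a group and dashed lines medians of all probes tested. Both subunits have medians above 0 in animal 2 and below 0 in animals 1 and 3.

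RPL15 and RPS15A were represented by more than 1 probe. The brighter RPL15 probe had ratios of 0.03, 0.57, 0.06 and 0.09 in animals 1 to 4 (mean 0.19), and the dimmer one, with another accession, had -1.31, 0.12, -1.64 and -0.20 (mean -0.76). They differed most in animals 1 and 3, and neither passed the test. The brighter RPL15 probe was the only one of the 76 to share a run of 20 or more bases with another probe of the array. The run was 31 bases long, from base 30 to the end of the RPL15 probe and at the start of a probe described as GJA4, a gap junction protein, and its first 30 bases are printed here for both.
RPL15: CGCTTAAGTGATTTCCAGAAAACAGGCTTG
GJA4: CGCTTAAGTGATTTCCAGAAAACAGGCTTG
The GJA4 probe was at 15.88, 16.62, 16.35 and 16.36 in endometrium and 15.76, 16.005, 16.13 and 16.33 in blood. Its ratios were 0.12, 0.61, 0.22 and 0.02, and those of the RPL15 probe stood in the same animals at 0.03, 0.57, 0.06 and 0.09. Because of the shared run, these 2 probes cannot be taken as independent readings. For RPS15A, the probe described by that name had a mean ratio of -0.25, a probe of the same accession described as another gene one of -0.53, and the last was too dim to be tested.

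Further ribosomal proteins stood on the array under other names. RPS15 (-0.05) and RPL13 (0.04), both named only by the reference table, had ratios near 0, and RPS26 was at -0.46, with an adjusted p of 0.662 in limma. FAU, a fusion of a ubiquitin-like protein with RPS30, had a ratio of -0.24, and was not called. The probe for RACK1, a scaffold on the small subunit, was well above background in no channel.

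The ribosomal proteins of the mitochondrion, a separate family, spread more widely but lay at lower levels. Of 71 genes, 0 were called. Before adjustment 2 were higher and 1 lower at p of 0.05 or less, against 7.98% and 8.05% of all probes. The median ratio of the 71 genes was -0.24, with a median size of 0.448. The brightest of them had a mean level of 14.8, while 58 of the 76 cytosolic genes lay at 14 or more. Over all probes the median size was 0.649 at levels of 10 to 12 and 0.528 at 12 to 14. The spread of the 2 families was thus not compared at equal level. The median of the 71 genes was 0.02, 0.06, -0.97 and -0.01 in animals 1 to 4. The 3 past the unadjusted threshold were MRPL24 (1.21), MRPS21 (1.94) and MRPS23 (-2.03). The ribosome biogenesis list holds processing factors of the nucleolus and parts of RNA polymerase I. Its 37 genes had a median ratio of -0.35 with 0 called. Lower at a p of 0.05 or less before adjustment were 3 of the 37, a share near the 8.05% of all probes. They were EMG1, a methyltransferase of the small subunit's RNA (-1.49), and POLR1C, a subunit of RNA polymerases I and III (-1.27). The last was RRN3, an initiation factor of RNA polymerase I (-1.49). Their adjusted p values were 0.238 to 0.306 in limma. In animal 3 the median of this list was -1.26 and in animal 1 it was 0.36.

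Of 14 translation factors and other genes whose messages carry the terminal oligopyrimidine tract, 0 were called and the median ratio was -0.17. EIF3F, a subunit of the initiation factor eIF3, was lower in 4 of 4 animals, at -1.77, -1.26, -1.77 and -0.86 (adjusted p = 0.226 in limma). EEF1A1, which brings aminoacyl-tRNA to the ribosome, had a ratio of -0.01. Of the genes of mTORC1 and the S6 kinases, 11 of 12 were tested, 0 were called and the median was 0.13. RPS6KA1, a kinase of the RSK family, had the highest ratio of that list, 1.04 (adjusted p = 0.407 in limma).

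The sorted cells differed in markers of other cells while the ribosomal protein genes did not pass the test. Of the trophoblast list 6 of 8 genes were called higher in endometrium, of the epithelial list 4 of 7 and of the stromal list 2 of 5. In the trophoblast list 1 gene, PAG1, had a mean ratio below 0 (-2.10, adjusted p = 0.230 in limma). In linear units of the table, the summed level of the trophoblast list was 41440 to 146066 in endometrium and 2630 to 9162 in blood. That of the epithelial list was 8599 to 124505 and 928 to 5825, and that of the stromal list 193 to 209498 and 106 to 2640. B cell markers were lower in endometrium, with a median ratio of -2.57, and 1 of 7 was called (BLK). Their summed level was 10563 to 57815 in endometrium and 22325 to 141154 in blood. Of the granulocyte list 1 of 4 genes was called lower (CCR3), with sums of 166 to 3703 and 378 to 26902. In this list 3 genes had a mean ratio below 0. The remaining gene, LTF, had one above 0 (2.75, adjusted p = 0.215 in limma). The T and NK cell list had 0 of 10 called, with sums of 124922 to 500163 and 9100 to 180958. Its median ratio was 1.20, and 4 of 10 genes were higher at p of 0.05 or less before adjustment, against 7.98% of all probes. CD14, the sorting marker, was well above background in all channels and had ratios of -2.09, 0.31, 0.65 and 0.44 in animals 1 to 4. In the monocyte and macrophage list 0 of 7 genes were called, with sums of 26379 to 256867 in endometrium and 4439 to 205143 in blood. Before adjustment, 5 of these 7 genes were higher at p of 0.05 or less in limma, against 7.98% of all probes. They were CD68, CSF1R, AIF1, CD163 and FCGR1A. The other 2, CD14 and ITGAM, had a mean ratio below 0. The median ratio of this list was above that of the T and NK cell list. No list had a gene that was well above background in no channel of a tissue. The B cell markers had medians of -2.77, -3.21, -4.04 and -0.50 in animals 1 to 4. RPS27 had ratios of -0.73, -0.95, -1.90 and -1.19 in the same animals. In animal 4, where RPS27 was at -1.19, 3 of the 7 markers were above 0. The part of B cells in the ratio of RPS27 was not tested.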

How the data were processed

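CD14+ cells of endometrium and blood of 4 cows were compared on 8 arrays with 2 colours. The authors extracted spot intensities with Agilent Feature Extraction (9.5 in the submitters' processing notes, 10.5.1.1 in the files) and deposited the intensity of each dye. They also deposited a table of log2 values, which had gone through lowess on each array and then quantile normalization of the 16 channels, with each column on the same set of values from 2.22 to 18.1. These log2 values were used here, with the spots of a probe averaged. The filter on dim probes and some alternatives used the scanner files. Each of the 16 columns equalled, within 0.001 log2 at 100% of probes, the labelled dye in the scanner file that GEO gives to its animal's other technical replicate. At most 0.689% of probes were equal in its own file. Files were therefore read crossed, which was chosen after the values were seen. By the paper, endometrial RNA was in Cy5 in the first replicate and in Cy3 in the second, except in 1 animal. In animals 1, 2 and 4 the files read crossed have this order. The replicate numbers of the columns have the opposite order. If the files were instead read under their own labels, dyes included, the ratios of animals 1, 2 and 4 would turn. Animal 3, whose dyes were not swapped, would keep its direction. Over the probes tested, the ratios of animal 3 had a correlation of 0.338, 0.369 and 0.341 with those of animals 1, 2 and 4 as labelled. The placental genes PAG10 (5.39, 3.37, 5.76 and 5.01) and PRP6 (5.42, 5.79, 5.62 and 6.11) were higher in endometrium in animals 1 to 4 as labelled, which is the direction of animal 3.

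Ratios (log2, endometrium over blood) were averaged over 2 technical replicates, and they were tested against 0 over 4 animals with limma 3.58.1 (lmFit, eBayes) in R 4.3.3, with Benjamini-Hochberg adjustment over 16653 probes. Both tissues came from the same animal by the labels, and as a check their deviations from the tissue means correlated at 0.628, 0.372, 0.239 and 0.452 in animals 1 to 4. The fit was tested on simulated data. Depth has no counterpart on arrays, and the number of animals limits precision. Of the 76 genes, 45 were found by gene name and 31 by the description. The reference table (RefSeq, ARS-UCD2.0) held 69 of their accessions, 67 with the same symbol. Its coordinates were not used, since the build of the array differs. The same hybridization cannot separate a gene from a near-identical processed pseudogene.

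Genes were named by rule: RPL19, the stalk genes, RPSA, RPS6, the 6 highest and 6 lowest ratios, paralogs with namesakes, and ribosomal proteins under other names. The members, lists and rules were chosen with earlier results of these data known. Alternatives changed the intensities, background correction (normexp with an offset of 50 or none), centring, filter, pairing, slide, replicates, animals, probes of a gene, test and threshold. Some genes are left unnamed here but remain in the counts and medians of the set. The PCR and flow cytometry of the study were not analysed here.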

Additional observations from a re-analysis of the deposited data

Results flagged for a closer look

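In 83 groups of 4 values examined for the named genes and the medians of the set, 2 had a value far from the others by Dixon's criterion, and chance gives about 1 in 20. RPL26L1 was at 14.07 in the endometrium of animal 2, against 12.86 or less in the others. RPL6 was at 15.96 in the endometrium of animal 1, against 16.51 or more in the others.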

How the results depend on the processing

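The count of ribosomal protein genes called stayed at 0 in both directions under each alternative fit, with the lowest adjusted p of the set between 0.126 and 0.525. It became 1 lower in endometrium (RPS27) at an unadjusted p of at most 0.05, with a fold change of at least 2 or with none. The median ratio of the set lay between -0.15 and 0.10, its median size between 0.132 and 0.208, and 65 to 72 genes lay within 0.5 of 0. RPS27 stayed negative, at -1.35 to -0.96, with an adjusted p of 0.126 to 0.558.

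The numbers of all probes called higher and lower in endometrium, 204 and 20, moved more. They were 159 and 12 on the processed signal of the scanner, 11 and 0 with normexp, 50 and 0 without background correction, 115 and 8 without the filter, 99 and 5 with probes well above background in all 16 channels, 178 and 13 with technical replicate 1, and 0 and 0 in the unmoderated test. Without the pairing of tissues by animal (no replicate block) they were 35 and 3, and RPS27 had an adjusted p of 0.558. Without 1 animal they ranged from 0 to 176 and from 0 to 4, with 0 of both without animal 4. At an unadjusted p of at most 0.05 they were 1329 and 1341.

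Of 26 named genes, 10 kept their direction throughout, and the other 16 had a ratio within 0.305 of 0. The size of some low ratios depended on the background correction. With normexp and with no correction, RPL3L went from -1.44 to -0.35 and -0.56. RPL32 went from -0.99 to -0.61 and -0.74, and RPS27A from -0.90 to -0.49 and -0.61. RPS27 moved less, from -1.19 to -1.13 and -1.17. With the processed signal, RPL19 (0.045), RPLP0 (0.033), RPLP2 (0.067) and RPL36AL (0.0028) turned positive. RPL26 turned to -0.013 with normexp and to -0.012 with no background correction. After centring, RPL19 (0.11), RPLP0 (0.11), RPLP2 (0.12), RPS6 (0.078), RPL7 (0.0055) and RPL36AL (0.12) were positive. With replicate 1 only, RPLP0 (0.10) and RPL36AL (0.013) were positive, and RPS13 (-0.13), RPL12 (-0.17), RPL28 (-0.054), RPL26 (-0.13), RPL3 (-0.057) and RPL10 (-0.16) negative. With replicate 2 only, RPL19 (0.031), RPLP2 (0.13) and RPS6 (0.041) were positive and RPL36A (-0.013) negative. When 1 animal at a time was left out, the ratio ran across 0 in RPL19 (-0.10 to 0.053), RPL7 (-0.36 to 0.18), RPL36AL (-0.26 to 0.26), RPL26L1 (-0.085 to 0.42), RPL26 (-0.047 to 0.071), RPL36A (-0.037 to 0.083), RPL3 (-0.11 to 0.27), RPL10 (-0.10 to 0.34), RPL22 (-0.16 to 0.52), RPLP0 (-0.31 to 0.16), RPLP2 (-0.16 to 0.14), RPS6 (-0.13 to 0.12), RPL28 (-0.35 to 0.68) and RPS27L (-0.16 to 0.29). The cause was not tested.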
